A study of Homo sapiens with 75 samples.

Results

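The genes of DNA replication origins and forks were followed through 5 human cell lines after ionising radiation (IR). The 47 genes were a list of names, set by their place in the replication machinery with no measured value in the rule, and each was read from 1 probe set among the 19775 genes with such a probe set on 75 arrays. By role they were the MCM helicase (MCM2, MCM3, MCM4, MCM5, MCM6, MCM7), the origin recognition complex (ORC1, ORC2, ORC3, ORC4, ORC5, ORC6), the licensing factors CDC6 and CDT1 with the inhibitor geminin (GMNN), and the helicase activators CDC45, MCM10 and GINS1 to GINS4. At the fork they were the clamp PCNA and its loader (RFC1, RFC2, RFC3, RFC4, RFC5), the polymerases and primase (POLA1, POLA2, PRIM1, POLD1, POLD2, POLD3, POLE, POLE2), the Okazaki fragment enzymes FEN1 and LIG1, the single-strand binding protein RPA (RPA1, RPA2, RPA3), the chromatin factors UHRF1, CHAF1A and CHAF1B, and the fork protection genes CLSPN, TIMELESS and TIPIN with DTL. All 47 passed the filter on low levels in all 5 lines, so none was lost to it. For 22 of them the array held 1 probe set, and for 25 several, of which the one with the highest mean was used.

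In G1, ORC bound at an origin receives CDC6 and CDT1 and loads the MCM ring, and geminin later blocks CDT1 so that no origin is licensed again. In S phase, CDC45 and GINS join MCM into the active helicase, polymerase alpha and primase lay primers, PCNA holds the polymerases on the template, and FEN1 and LIG1 join the lagging-strand pieces. Many of these genes are known targets of E2F factors, which RB holds back in resting cells and in cells where p53 has raised the cyclin-dependent kinase inhibitor p21 (CDKN1A). PCNA is itself also a known p53 target, and DTL is the substrate receptor of a ubiquitin ligase that removes CDT1 when PCNA is loaded on DNA.

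The lines were G361 (a melanoma line), HepG2 (a hepatoma line), TK6 (a lymphoblastoid B cell line), U2OS (an osteosarcoma line) and BJ (foreskin fibroblasts), all grown in DMEM with fetal calf serum. Each line had 5 groups of 3 arrays: untreated cells at 0 h, 3 h and 6 h, and cells taken 3 h or 6 h after a dose of 5 Gy. The untreated cells were mock-irradiated, and there was no irradiated group at 0 h. The labels do not say that the 3 arrays of a group came from separate cultures, so the p-values reflect only how much these arrays varied, part of which may be technical. Cultures were measured in bulk, so fewer cells in S phase and less RNA per cell cannot be told apart.

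The arrays had medians of 3.91 to 4.07 log2, and arrays of 1 group correlated at 0.970 to 0.996. The mean level of 17 p53 targets, given relative to the 0 h arrays of the line, was 1.68 to 1.97 log2 in the 6 irradiated TK6 arrays, 0.70 to 1.64 in those of U2OS and 0.56 to 0.69 in those of BJ. In the G361 arrays it did not follow the labels: it was -0.05 to 0.19 in the 3 labelled irradiated at 3 h, but 0.93 and 0.97 in 2 of 3 labelled untreated at 6 h and 0.80 in 1 labelled untreated at 3 h. In HepG2 it was 0.97 to 1.09 in the arrays labelled untreated at 6 h and 0.03 to 0.23 in those labelled irradiated at 3 h. Directions in these 2 lines refer to the arrays as labelled. Markers of the line were highest in that line for 4 of 4 genes in G361, 4 of 4 in TK6 and 5 of 5 in BJ, but for 2 of 5 in U2OS and 1 of 5 in the arrays labelled HepG2, where albumin (ALB) was at 2.77 log2 and APOA1 at 4.07. SERPINA1, a liver marker, was at 8.57 in U2OS and 3.26 in HepG2, and the bone marker RUNX2 at 8.04 and 9.17. These orders go against the line labels. Two-way values for the liver marker AFP (5.89 in HepG2, 5.48 in U2OS) and the bone marker SPP1 (7.10 and 8.83) go with them. ALPL, the other bone marker highest in U2OS, was at 3.36, below the level limit of 3.52. The markers of these lines are thus mixed.

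E2F words and CCAAT boxes were more frequent in promoters of the genes than in all promoters, and the list was not chosen by sequence. Of the 47 genes, 41 had an entry in the RefSeq table (GRCh38.p14), and the 250 bases before the start were searched on both strands for the E2F words TTTCCCGC, TTTGGCGC, TTTCGCGC and TTTGCCGC, for the CCAAT box and for the CHR word TTTGAA. An E2F word stood in 14 of the 41 promoters (34.1%), against 2.79% of 27305 promoters, and a CCAAT box in 26 (63.4%), against 33%. The CHR word, known from promoters of G2 and mitosis genes, was in 0 of 41, against 13.6% of all. The 14 genes with an E2F word were MCM3, MCM6, MCM7, CDT1, ORC3, GINS2, PCNA, RFC3, POLA1, POLA2, POLE, LIG1, UHRF1 and DTL. MCM4, MCM5, GINS4, POLD3, RPA2 and RPA3 were not matched. CDC6, PRIM1 and GINS1, named in results below, were matched and held no E2F word. A match is a description of letters and not of binding. The 27305 promoters were not matched to those of the members for base composition.

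Sequences are shown for 6 of the 14 promoters with an E2F word, and for no promoter without one. They are MCM6 and UHRF1 (fell in TK6), DTL (lowest difference in BJ), PCNA and POLA2 (rose in TK6) and ORC3 (evenest level across lines). They lie at chr2:135876444-135876693 (MCM6, minus strand), chr19:4909251-4909500 (UHRF1, plus strand), chr1:212035498-212035747 (DTL, plus strand), chr20:5126623-5126872 (PCNA, minus strand), chr11:65261712-65261961 (POLA2, plus strand) and chr6:87589885-87590134 (ORC3, plus strand). Each is written 5′ to 3′ on the strand of the gene and ends at the base before the start. Capitals mark the E2F words and the CCAAT boxes (CCAAT, or ATTGG on the other strand). In MCM6 the 4 E2F matches overlap in 2 separate stretches.
MCM6: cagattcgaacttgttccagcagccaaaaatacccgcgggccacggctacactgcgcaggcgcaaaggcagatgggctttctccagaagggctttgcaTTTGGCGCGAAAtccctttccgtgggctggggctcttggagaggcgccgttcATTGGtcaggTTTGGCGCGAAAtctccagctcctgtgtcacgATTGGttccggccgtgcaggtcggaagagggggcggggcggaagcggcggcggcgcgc
UHRF1: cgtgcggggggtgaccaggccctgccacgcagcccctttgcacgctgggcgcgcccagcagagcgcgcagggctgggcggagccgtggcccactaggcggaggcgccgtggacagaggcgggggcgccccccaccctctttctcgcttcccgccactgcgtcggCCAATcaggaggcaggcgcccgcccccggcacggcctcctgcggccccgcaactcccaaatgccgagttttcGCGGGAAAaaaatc
DTL: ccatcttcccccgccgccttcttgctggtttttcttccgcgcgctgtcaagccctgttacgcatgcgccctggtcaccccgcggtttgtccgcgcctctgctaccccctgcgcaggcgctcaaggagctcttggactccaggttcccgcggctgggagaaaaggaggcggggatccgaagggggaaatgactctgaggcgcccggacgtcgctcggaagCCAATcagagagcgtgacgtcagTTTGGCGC
PCNA: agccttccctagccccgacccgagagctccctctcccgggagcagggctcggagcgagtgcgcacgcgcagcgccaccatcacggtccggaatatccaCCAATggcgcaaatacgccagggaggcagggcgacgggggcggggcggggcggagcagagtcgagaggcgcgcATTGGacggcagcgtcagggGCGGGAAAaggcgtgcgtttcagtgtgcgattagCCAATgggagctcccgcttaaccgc
POLA2: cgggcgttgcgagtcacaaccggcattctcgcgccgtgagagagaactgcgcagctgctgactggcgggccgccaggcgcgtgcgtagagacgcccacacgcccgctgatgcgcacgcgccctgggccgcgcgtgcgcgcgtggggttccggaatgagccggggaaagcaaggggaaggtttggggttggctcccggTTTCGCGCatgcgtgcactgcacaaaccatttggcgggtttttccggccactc
ORC3: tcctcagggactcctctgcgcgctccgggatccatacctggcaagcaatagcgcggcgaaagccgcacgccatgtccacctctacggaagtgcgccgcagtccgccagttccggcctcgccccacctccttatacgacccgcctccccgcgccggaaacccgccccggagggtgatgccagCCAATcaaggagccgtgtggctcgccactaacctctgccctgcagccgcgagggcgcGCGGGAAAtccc
The E2F word nearest to the start ends 6 bases before it in UHRF1, 4 in ORC3, 45 in POLA2, 51 in PCNA and 78 in MCM6, and in DTL it reaches the start.

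In untreated cells at 0 h the replication genes were low in BJ, and the other 4 lines lay closer together. The median of the 47 genes in BJ lay -1.84 log2 from the mean of the other 4 lines, against -0.12 over the 16027 genes tested. With limma's moderated test of each pair of lines and Benjamini-Hochberg adjustment, 41 of 47 were lower in BJ than in each of the other 4 lines. Line by line, 41 members were called higher in G361 than in BJ, 45 in HepG2, 44 in TK6 and 45 in U2OS, against 29.2%, 26.3%, 32.8% and 32.1% of all genes. The 3 BJ arrays lay below all 12 others for 40 of 47 genes, against 10.9% of all genes tested. A level difference between the 5 lines was called for 46 of 47 genes, but it was also called for 80.4% of all genes, so that count by itself sets these genes little apart.

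ORC1, the ORC subunit whose amount changes through the cell cycle, was at 3.90, 4.14 and 4.11 log2 in the BJ arrays. It was at 7.17 to 7.23 in G361, 7.36 to 7.79 in HepG2, 7.39 to 7.95 in TK6 and 7.18 to 7.61 in U2OS. The groups did not overlap, the difference from the mean of the other lines was -3.42 log2, and the other 4 lines differed by 0.45 at most. The BJ arrays stood at about the array medians for this probe set, near the low end of the scale, which limits how large a difference can be measured. PRIM1, the catalytic primase subunit, was at 6.19, 6.5 and 6.52 in BJ and at 9.03 or more in every other array, -3.40 log2 from the mean of the other lines. MCM10, which helps to activate the loaded helicase, lay -3.33 from that mean, and in BJ it was at 5.20, 5.82 and 5.76.

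By complex, the medians of the difference between BJ and the other lines were -2.37 log2 for CDC45, GINS and MCM10, -2.12 for the licensing factors, -2.02 for MCM, -1.80 for the Okazaki fragment enzymes, and -1.68 for both the clamp group and the polymerases. They were -1.52 for the chromatin factors, -1.29 for the fork protection genes, -1.24 for ORC and -1.11 for RPA. The MCM genes stood close together: the 6 differences ran from -2.10 to -1.62, and all 6 were below all other arrays. ORC ran widest, from -3.42 for ORC1 to 0.08 for ORC3.

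The 6 genes that were not called lower in BJ than in each other line were ORC2, ORC3, ORC4, RFC1, RFC5 and RPA1. ORC3 was at 7.86, 8.4 and 8.19 log2 in BJ and between 7.63 and 8.38 in the other 12 arrays, and it was the 1 gene without a called difference between the lines (adjusted p = 0.598). ORC2, ORC4 and RPA1 were called lower in BJ than in HepG2, TK6 and U2OS, but differed from G361 by 0.20 (SE 0.20), 0.32 (SE 0.15) and 0.11 (SE 0.12) log2. RFC5 is uncertain: the probe set used was 0.67 higher in BJ than the mean of the other lines, while its other probe sets lay at -2.06 and -2.09. RFC1, the large subunit of the clamp loader, differed from that mean by -0.35 and was called lower in BJ than in HepG2 and U2OS.

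Among the other 4 lines single genes stood out in single lines. POLE2, a subunit of polymerase epsilon, was at 9.59 to 9.76 log2 in U2OS and at 7.53 to 8.42 in G361, HepG2 and TK6, and RPA3 was at 12.17 to 12.20 in U2OS and at 10.17 to 11.20 in those 3. MCM2 was low in G361 (8.43 to 8.51) against 10.33 to 10.75 in HepG2, TK6 and U2OS. Members low in G361 outnumbered those high there: 22 were lower and 5 higher than in U2OS, against 26.9% and 23.4% of all genes, with a median of -0.24. Against TK6 16 were lower in G361 and 7 higher, against 25.2% and 25.5% of all genes (median -0.18), and against HepG2 16 lower and 4 higher, against 20.1% and 25.2% (median -0.24). Between TK6 and U2OS 14 of 47 members were higher in U2OS and 7 in TK6, against 29.8% and 25.7% of all genes.

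The G2 and mitosis genes, a list of 20, were also low in BJ, with a median of -1.49 log2 and 20 of 20 lowest there. A second list of 40 further replication and S phase genes had a median of -1.55, with 35 of 40 lowest in BJ. Of all 16027 genes tested, 31% were lowest in BJ. The 17 p53 targets had a median of 0.61. The share of cycling cells was not measured, and its part in these levels was not tested.

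**Figure D1:**
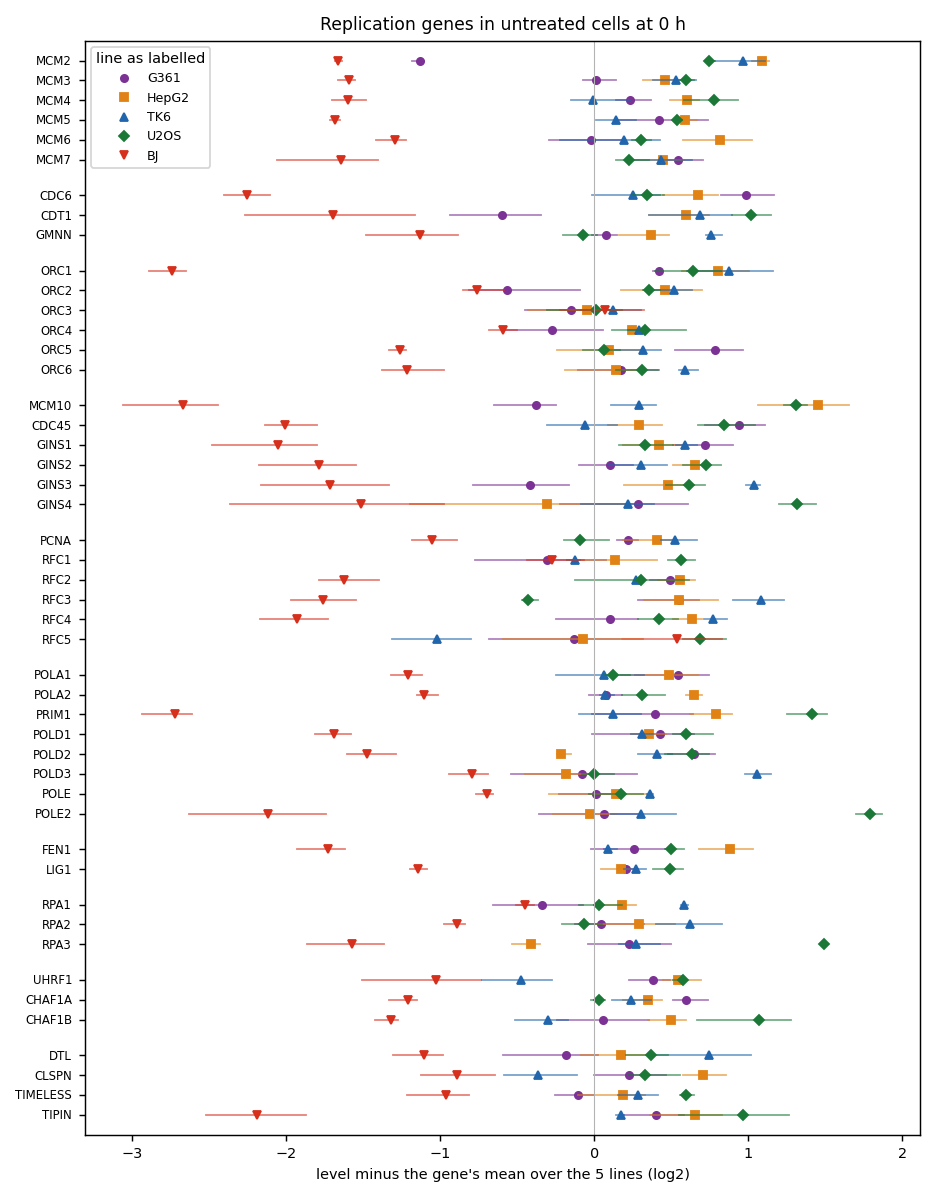
Level of each of the 47 genes in untreated cells at 0 h, as log2 minus the mean of the gene over the 5 lines, with genes grouped by complex from MCM (top) to fork protection (bottom). Symbols are means of 3 arrays and lines span the lowest to the highest array. BJ (red triangles) has the lowest mean for 44 of 47 genes, against 31% of all genes tested, and ORC3 and RFC5 are among the exceptions.

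In TK6, irradiation moved a small set of replication genes in both directions. At 3 h GINS4, LIG1, POLA2, CDC6 and PCNA rose, 5 of 47, where 1.88% of all genes rose. By limma 0 of the 47 fell, where 2.11% of all genes did (3.99% called in all), and 1 member had an unadjusted p under 0.05 on the lower side. At 6 h GINS4, LIG1, PCNA and POLA2 rose and UHRF1, MCM6, GINS2 and MCM3 fell, 8 of 47 against 6.23% of all genes (4.01% rose and 2.23% fell). The median of the 47 differences was 0.14 log2 at 3 h and -0.03 at 6 h, against 0.01 over all genes at both times. The 6 h differences lay on both sides of 0: 12 members were higher and 12 lower without overlap between the arrays, against 13.1% and 10.6% of all genes, and 15 had an unadjusted p under 0.05, 7 higher and 8 lower.

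GINS4, a subunit of the helicase-activating GINS complex, was at 8.05, 6.71 and 8.14 log2 in untreated TK6 at 3 h and at 8.74, 8.87 and 8.77 after irradiation. The arrays did not overlap, but untreated replicate 2 stood apart from the rest. GINS4 rose by 1.16 log2 (SE 0.26, 2.23-fold, adjusted p = 0.0122). Without replicate 2 of every group the difference was 0.66. At 6 h it was at 7.80, 7.92 and 8.11 untreated and at 8.72, 9.22 and 8.93 irradiated, a rise of 1.01 (SE 0.26, adjusted p = 0.0239). With the mean of all its probe sets it was 0.48 and not called, and the other probe sets of GINS4 were near the low end of the scale.

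PCNA was at 11.90, 12.19 and 12.09 log2 in untreated TK6 at 3 h and at 12.36, 12.43 and 12.42 after irradiation. It rose by 0.35 (SE 0.08, adjusted p = 0.0169). At 6 h it was at 11.78, 11.93 and 11.98 untreated and 12.32, 12.38 and 12.42 irradiated, a rise of 0.47 (SE 0.08, adjusted p = 0.00106). All irradiated arrays lay above all untreated ones at both times.

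LIG1, the ligase that seals Okazaki fragments, was at 8.09, 7.91 and 8.08 log2 untreated and 8.72, 8.60 and 8.41 irradiated at 3 h. It rose by 0.55 (SE 0.11, adjusted p = 0.0036), and at 6 h by 0.54 (SE 0.11, adjusted p = 0.00342). POLA2, the regulatory subunit of polymerase alpha, rose by 0.55 at 3 h (SE 0.11, adjusted p = 0.00447) and by 0.37 at 6 h (SE 0.11, adjusted p = 0.047). For both genes the irradiated arrays lay above the untreated ones at both times, and FEN1, the flap nuclease that acts before LIG1, differed by 0.10 and 0.09 (not called). With the mean of all its probe sets POLA2 differed by 0.31 and 0.16 and was not called.

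CDC6 was called at 3 h alone. At 3 h it was at 7.75, 7.90 and 7.92 log2 untreated and 8.23, 8.41 and 8.24 irradiated, and rose by 0.43 (SE 0.12, adjusted p = 0.042). At 6 h it was at 8.15, 8.14 and 8.10 untreated and 7.82, 7.96 and 7.89 irradiated, lower in every array. That difference of -0.24 was not called (adjusted p = 0.307). By limma the change of the effect from 3 h to 6 h was -0.67 (SE 0.16) and not called (adjusted p = 0.13). The 3 h call was lost in all 9 settings that left out arrays, and without the variance trend (adjusted p = 0.0606).

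UHRF1, which ties DNA methylation to the replication fork, was the member with the lowest difference in TK6 at 6 h. It was at 9.27, 9.24 and 9.34 log2 in the untreated arrays and 8.69, 8.70 and 8.45 in the irradiated ones, and fell by 0.67 (SE 0.12, adjusted p = 0.00153). At 3 h its difference was 0.19 with overlapping arrays. The change of the effect from 3 h to 6 h was -0.86 (SE 0.17, adjusted p = 0.0329), the 1 such call among the 47, where 0.295% of all genes were called. In 12 of the 15 settings that left out arrays 0 members were called for this difference.

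The MCM genes lay on the low side at 6 h without moving as 1 block. MCM6 was at 10.94, 11.09 and 11.01 log2 untreated and 10.34, 10.47 and 10.31 irradiated, and fell by 0.64 (SE 0.15, adjusted p = 0.0132). MCM3 was at 10.33, 10.21 and 10.19 untreated and 9.87, 9.93 and 9.97 irradiated, and fell by 0.31 (adjusted p = 0.0257). MCM2 (-0.27), MCM4 (-0.26), MCM7 (-0.11) and MCM5 (-0.01) were not called. The MCM differences at 6 h had a median of -0.27. In the other complexes ORC ran from -0.26 to 0.14 and RPA from -0.06 to 0.15, with no call.

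GINS2 was at 10.01, 9.90 and 10.06 log2 untreated and 9.53, 9.50 and 9.63 irradiated at 6 h, and fell by 0.44 (SE 0.10, adjusted p = 0.011), while GINS1 (-0.04) and GINS3 (0.01) were near 0 and GINS4 rose. Untreated TK6 cells also had calls. At 6 h against 0 h CHAF1B (0.47), GINS2 (0.43) and MCM5 (0.37) rose, 3 of 47, where 1.81% of all genes rose (5.16% called in all). Of 9 settings that left out arrays, the call was lost in 9 for CHAF1B, 7 for MCM5 and 6 for GINS2. With the mean of all its probe sets GINS2 differed by 0.19 in this comparison and was not called. Irradiated against untreated at 6 h, it was then at -0.29, also not called. Against the untreated 0 h arrays, irradiated GINS2 at 6 h differed by -0.01, MCM3 by -0.05 and MCM6 by -0.33, and none of these was called. The untreated 6 h means were above the 0 h means by 0.43 for GINS2 (called), 0.26 for MCM3 and 0.31 for MCM6 (neither called).

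Same-numbered TK6 arrays deviated together, and when the fit held a block for replicate number 9 members rose at 3 h, where 8.46% of all genes were called, adding MCM5 (0.25), MCM10 (0.41), ORC3 (0.32) and RPA3 (0.23). At 6 h 13 were called with the block, against 13.1% of all genes: POLA1 (0.40), PRIM1 (0.31) and RPA3 (0.15) were added to those that rose and TIPIN (-0.32) and MCM2 (-0.27) to those that fell. The difference between the times was then called for 4 members, all lower at 6 h, against 1.03% of all genes: UHRF1, CDC6 (-0.67), MCM6 (-0.66) and GINS2 (-0.62). In untreated TK6 at 6 h 10 were called, 8 higher and 2 lower, against 12.9% of all genes. The counts also rested on single replicates: without replicate 2 of every group 0 members were called at 3 h and 3 at 6 h, against 1.74% and 2.29% of all genes, and without replicate 3 the counts were 2 and 0, against 1.48% and 1.73%. Leaving out single arrays gave 2 to 5 members at 3 h and 3 to 6 at 6 h. In 1 fit of all 75 arrays, 2 were called at 3 h and 1 at 6 h, against 3.06% and 4.45% of all genes.

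The G2 and mitosis list moved far more in the same TK6 arrays: 17 of 20 fell at 3 h and 12 at 6 h, with medians of -1.05 and -0.43 log2. Of the 40 further replication and S phase genes 1 fell at 3 h, DBF4 (-0.66, adjusted p = 0.033), the partner of the CDC7 kinase that fires origins. At 6 h CCNE1, which encodes cyclin E1, fell by 0.52 (adjusted p = 0.00931), and the thymidine nucleotide enzymes TK1 (0.56, adjusted p = 0.0059) and TYMS (0.26, adjusted p = 0.0227) rose.

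**Figure D2:**
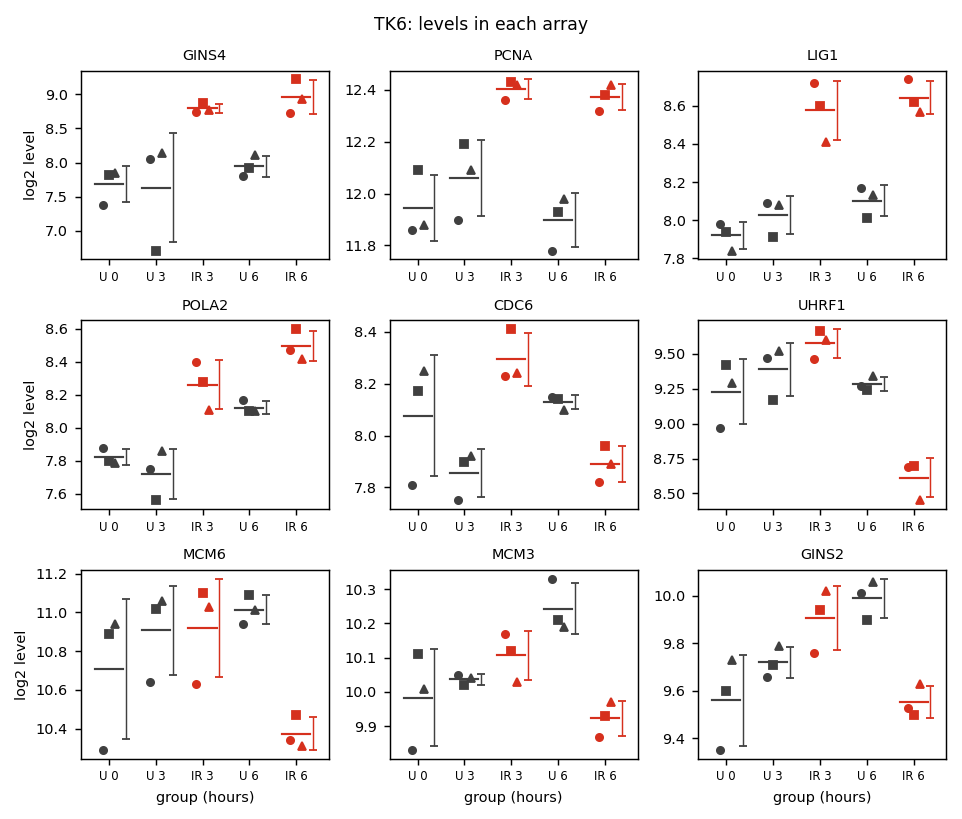
Log2 level of the 9 genes called in TK6 in each array, by group (U untreated, IR irradiated, with the hour). Points are arrays, with circle, square and triangle for replicates 1, 2 and 3, horizontal bars are means and whiskers are 1 SD. GINS4, PCNA, LIG1 and POLA2 are higher in the irradiated arrays (red) at both times, CDC6 at 3 h alone, and UHRF1, MCM6, MCM3 and GINS2 are lower at 6 h.

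In BJ fibroblasts the replication genes were lower as a group 6 h after irradiation, though no single gene passed the threshold in the fit of the line. Of 47 differences 43 were negative, with a median of -0.51 log2 against 0.02 over all genes. For 26 genes all 3 irradiated arrays lay below all 3 untreated ones, against 4.9% of all genes, and for 0 above. By limma 0 of 47 were called, against 0.235% of all genes, and 27 had an unadjusted p under 0.05, 26 lower and 1 higher (PCNA). The share of all genes at that unadjusted cut is not given here.

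DTL was at 7.94, 7.14 and 7.39 log2 in untreated BJ at 6 h and at 5.94, 5.78 and 5.86 after irradiation. The irradiated arrays lay well below the untreated ones and close together, with a difference of -1.63 (SE 0.36, 3.1-fold lower, adjusted p = 0.0843). UHRF1 was at 9.43, 8.23 and 8.41 untreated and 7.36, 6.92 and 7.34 irradiated, a difference of -1.48 (SE 0.36, adjusted p = 0.14).

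The licensing genes were all lower. CDC6 was at 5.72, 4.68 and 4.58 log2 untreated and 3.70, 3.27 and 3.67 irradiated, a difference of -1.44 (SE 0.38, adjusted p = 0.229). The irradiated arrays were then near the level filter of 3.47 log2 for BJ, so a lower level could hardly be seen. CDT1 was at 6.13, 5.45 and 6.45 untreated and 4.59, 4.6 and 4.62 irradiated, a difference of -1.41 (SE 0.40). GMNN, the inhibitor of CDT1, differed by -0.87 (SE 0.24).

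Of CDC45, GINS and MCM10, 5 of 6 were lower without overlap. MCM10 was at 6.04, 4.83 and 4.94 log2 untreated and 3.70, 3.97 and 4.07 irradiated, a difference of -1.36 (SE 0.39). GINS1 was at 6.97, 6.42 and 6.42 untreated and 5.36, 5.59 and 5.25 irradiated (-1.20, SE 0.38). GINS2 (-0.89), GINS3 (-0.88) and CDC45 (-0.72) followed, and GINS4 (-0.18) overlapped.

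Of the MCM genes 5 of 6 were lower without overlap, but by less, from -0.65 for MCM5 to -0.42 for MCM6. MCM7 was at 8.21, 7.27 and 7.58 log2 untreated and 7.28, 6.96 and 7.22 irradiated, so that 1 irradiated array lay just above 1 untreated one. The differences of the complexes were not tested against each other.

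The ORC genes split. ORC6, at 6.89, 5.85 and 6.02 log2 untreated and 5.42, 5.45 and 4.83 irradiated, differed by -1.02 (SE 0.36), and ORC1 by -0.65 (SE 0.26). ORC2 (-0.12), ORC5 (-0.03), ORC4 (-0.01) and ORC3 (0.04) had overlapping arrays. ORC3 was at 7.95, 8.23 and 8.14 untreated and 8.13, 8.25 and 8.06 irradiated.

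At the fork, PRIM1 (-0.98, SE 0.33) and POLE2 (-0.94, SE 0.35) had the lowest differences among the polymerase genes. POLD3 (-0.55) and POLD1 (-0.49) were also lower without overlap, while POLA1 (-0.23), POLA2 (-0.31), POLE (-0.07) and POLD2 (0.00) overlapped. FEN1 was at 8.55, 8.06 and 8.0 log2 untreated and 7.57, 7.52 and 7.34 irradiated (-0.73, SE 0.24), and LIG1 differed by -0.26. RFC3 (-0.58) and RFC4 (-0.51) were lower without overlap, and RFC1 was at 0.01.

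The RPA genes were near the controls: RPA1 differed by -0.01, RPA2 by -0.06 and RPA3 by -0.19, all with overlap. TIPIN (-0.67) and TIMELESS (-0.23), partners in fork protection, were lower without overlap. CLSPN, at 4.12 log2 in untreated BJ at 0 h, differed by -0.08. Its mean over the 15 BJ arrays was 3.85, near the level limit of 3.47 log2, so a drop could hardly be seen. CHAF1B (-0.60) and CHAF1A (-0.21), subunits of the histone chaperone CAF-1, had overlapping arrays.

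PCNA went the other way, with the caution of 1 array. It was at 10.70, 9.77 and 9.75 log2 untreated and 10.60, 10.50 and 10.75 irradiated at 6 h. Untreated replicate 1 lay among the irradiated arrays, and the difference of 0.54 (SE 0.21) was not called.

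The spread between BJ arrays was wide, and single arrays stood apart. The mean of the 47 genes relative to 0 h was -0.75 to -0.79 log2 in the irradiated 6 h arrays, and 0.08, -0.38 and -0.41 in the untreated 6 h arrays. At 3 h it was -0.74, 0.10 and -0.62 in the irradiated arrays and -0.54, 0.06 and -0.16 in the untreated ones, so the groups overlapped. The G2 and mitosis list followed the same arrays, at -1.68 to -1.56 in the irradiated 6 h arrays against -0.80 to -0.13 in the untreated ones, and 6 of its 20 genes fell at 6 h. Its part in the result was not tested.

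Untreated replicate 1 at 6 h and irradiated replicate 2 at 3 h decided several values. Without the former the median difference at 6 h was -0.29 log2. Irradiated replicate 2 at 3 h is not in the 6 h comparison but widens the shared error. Without it DTL (adjusted p = 0.00627), CDC6 (0.0186) and UHRF1 (0.0266) fell at 6 h. These were 3 of 47, against 0.373% of all genes that fell. That omission was chosen after seeing the data, and no other single array outside the 6 h comparison was left out in this way. A fit of the 6 arrays compared called 11 members lower, against 0.574% of genes: DTL, GINS1, CDT1, UHRF1, GMNN, CDC6, GINS3, PRIM1, GINS2, MCM10 and FEN1. In 1 fit of all 75 arrays 16 were called lower, against 0.792% of genes.

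At 3 h in BJ 42 of 47 differences were negative, with a median of -0.19 log2 against -0.00 over all genes, but 0 members had groups without overlap, where 3.32% of all genes were lower. By limma 0 were called, against 0.18% of genes, and 1 had an unadjusted p under 0.05. CDC6 had the lowest difference, -0.79 (SE 0.38): the irradiated arrays were at 3.98, 5.48 and 3.65 and the untreated ones at 4.67, 5.45 and 5.36. Of the 40 further replication and S phase genes, CCNE2 (cyclin E2, -2.35, adjusted p = 0.0186) and CDC25A (-1.55, adjusted p = 0.018), a phosphatase that activates cyclin-dependent kinases, fell at 6 h, and both are known E2F targets.

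**Figure D3:**
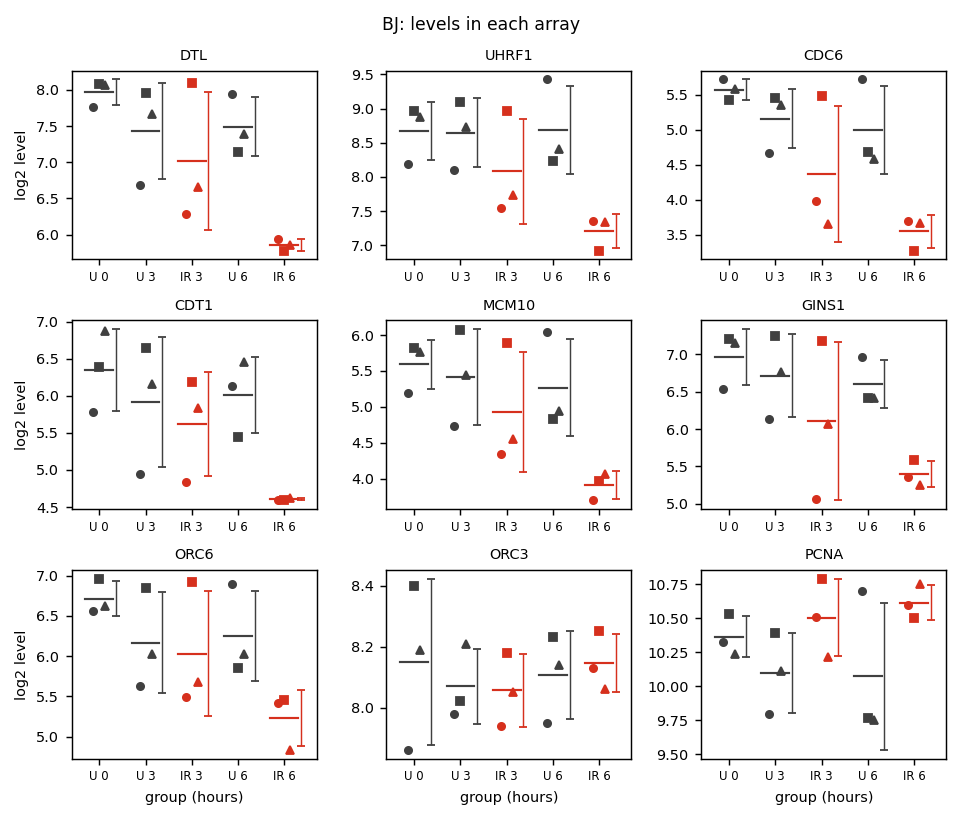
Log2 level of 9 genes in each BJ array, by group (U untreated, IR irradiated, with the hour). Points are arrays, with circle, square and triangle for replicates 1, 2 and 3, horizontal bars are means and whiskers are 1 SD. DTL, UHRF1, CDC6, CDT1, MCM10, GINS1 and ORC6 are lowest in the irradiated 6 h arrays, replicate 2 of the irradiated 3 h arrays lies with the untreated ones, and ORC3 and PCNA do not follow.

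In U2OS the replication genes stayed near the controls, although the p53 targets and the G2 and mitosis genes moved. By limma 0 of 47 were called at 3 h, against 0.0887% of all genes, and 0 at 6 h, against 0.641%. An unadjusted p under 0.05 was found for 4 members at 3 h (PCNA, POLA1, FEN1, TIMELESS) and for 1 at 6 h (PCNA). Those 4 were all higher without overlap, as were 4.97% of all genes. PCNA was at 11.10, 11.45 and 11.46 log2 untreated and 11.72, 11.67 and 11.72 irradiated at 3 h, a difference of 0.37 (SE 0.12, adjusted p = 0.909). At 6 h it was at 11.36, 11.32 and 11.57 untreated and 11.71, 11.68 and 11.69 irradiated (0.27, SE 0.12), again without overlap.

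At 6 h 7 of 47 members were higher without overlap, against 5.52% of all genes, and 3 of 47 were lower, against 6.93%. LIG1 was at 8.30, 8.34 and 8.0 log2 untreated and 8.42, 8.66 and 8.65 irradiated, a difference of 0.36 (SE 0.18). DTL, which was lowest in BJ, differed by -0.12 in U2OS. The median of the 47 differences was 0.16 log2 at 3 h, against 0.10 over all genes, and -0.02 at 6 h. Untreated replicate 1 at 3 h stood apart, at -0.47 relative to 0 h in the mean of the 47 genes, and without it the 3 h median was -0.03. In the same 6 h arrays 12 of 20 G2 and mitosis genes fell, and DBF4 fell by 0.94 (adjusted p = 0.00181), from 9.17, 9.15 and 9.25 untreated to 8.15, 8.47 and 8.13.

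In the arrays labelled G361 and HepG2 0 members were called against the labelled controls at either time by limma. All genes called were 0% in G361 at both times, 0% in HepG2 at 3 h and 0.00696% at 6 h. At an unadjusted p under 0.05 there were 0 and 9 members in G361, all 9 lower, and 4 lower in HepG2 at 3 h, with 2 higher and 6 lower at 6 h. In G361 at 6 h CDT1 was at 7.80, 7.86 and 7.59 log2 in the arrays labelled untreated and 7.07, 7.43 and 7.47 in those labelled irradiated, a difference of -0.43 (SE 0.18). GINS3 and MCM10 (both -0.35) were also lower without overlap there, as were 7 members in all, against 2.89% of genes.

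In HepG2 at 6 h CDC6 was at 8.80, 8.93 and 8.77 log2 in the arrays labelled untreated and 8.43, 8.43 and 8.33 in those labelled irradiated (-0.43, SE 0.11, adjusted p = 0.236). CLSPN (-0.40) and DTL (-0.33) were lower too, and PCNA (0.22) was higher, all without overlap. Lower without overlap were 10 of 47 members, against 7.02% of all genes, and 13 at 3 h, against 8.23%. The mean of the p53 targets was above its 0 h level in both HepG2 groups compared at 6 h, so this contrast does not set cells with a high level of p53 targets against cells with a low one. Without replicate 1 of every HepG2 group 5 members were called at 3 h and 5 at 6 h, against 6.53% and 2.59% of all genes, and 3 in the untreated 6 h arrays set against 0 h, where 1.95% of all genes were called.

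In the HepG2 arrays labelled untreated at 6 h, set against those at 0 h, 21 members were higher without overlap, against 10.4% of all genes. An unadjusted p under 0.05 was found for 22 members, all higher, and the share of all genes at that cut is not given here. None of the 47 was called by limma, where 0.64% of all genes were. ORC1 differed by 0.50 (SE 0.12), POLE by 0.61 (SE 0.17) and GINS4 by 0.60 (SE 0.24). The 0 h arrays hold 1 low array: relative to their own mean the 47 genes were at -0.22 in replicate 1, and the 6 h arrays were at 0.20 to 0.21.

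In untreated cells of the other lines the members moved little. By limma 0 were called at 3 h or 6 h against 0 h in G361, U2OS and BJ, where 0% (G361 and U2OS), 0.0138% (BJ at 3 h) and 0.00691% (BJ at 6 h) of all genes were called. Unadjusted p-values under 0.05 were found for 0 members in G361 and U2OS, and in BJ for 0 at 3 h and 4 at 6 h, all lower. In BJ all 47 differences at 3 h were at or below 0, with a median of -0.19 log2, and 40 of 47 were negative at 6 h. The mean of the 47 genes in these controls, relative to 0 h, was -0.54, 0.06 and -0.16 at 3 h. At 6 h it was 0.08, -0.38 and -0.41. The 0 h arrays themselves ran from -0.17 to 0.12, so not all controls lay below 0 h. Against the 0 h arrays, irradiated BJ at 6 h had a median of -0.71 and 11 members were called, against 2.08% of all genes. In TK6 at 3 h and HepG2 at 3 h 0 were called, against 1.81% and 0% of all genes, and 7 and 6 had an unadjusted p under 0.05.

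**Figure D4:**
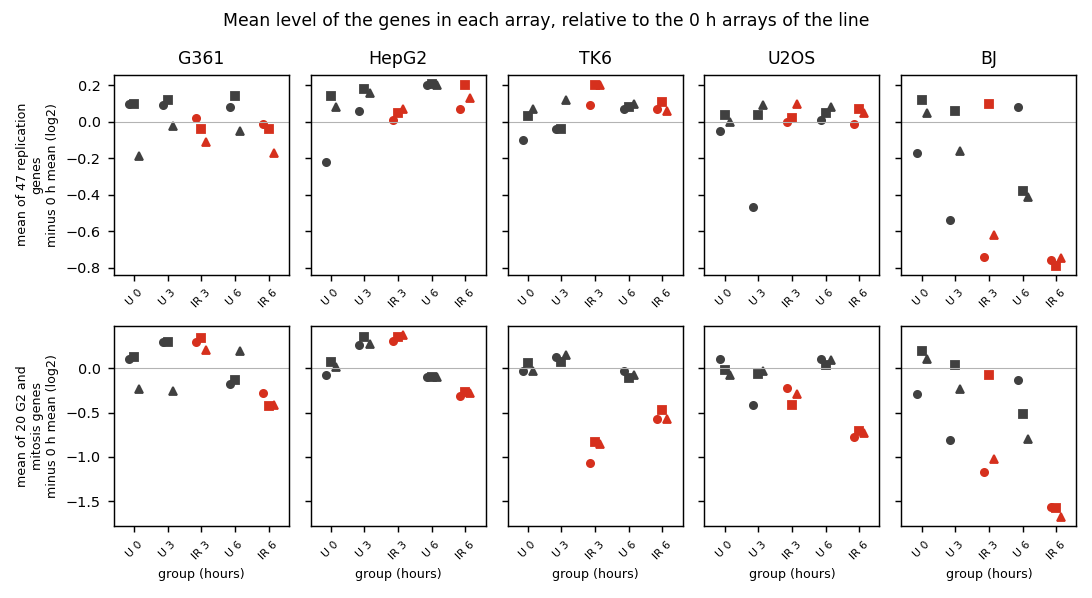
Mean of the 47 replication genes (top) and of 20 G2 and mitosis genes (bottom) in each array, as log2 relative to the mean of the 0 h arrays of the line, by group as labelled. Points are arrays, red where labelled irradiated, with circle, square and triangle for replicates 1, 2 and 3. Outside BJ the replication genes lie between -0.22 and 0.21, apart from 1 untreated U2OS array at -0.47. The G2 and mitosis genes are below the controls in irradiated TK6 at both times. At 6 h they are also below the labelled controls in U2OS, BJ, G361 and HepG2.

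The irradiation effect at 6 h differed between the 5 lines for 5 members, DTL, CDC6, UHRF1, PRIM1 and GINS1, against 1.83% of all genes, by a moderated F test in 1 fit of the 75 arrays. For DTL (adjusted p = 0.00102) the differences were -1.63 log2 in BJ, -0.50 in G361, -0.33 in HepG2, -0.12 in U2OS and 0.21 in TK6. For CDC6 (adjusted p = 0.0198) they were -1.44 in BJ, -0.43 in HepG2, -0.28 in G361, -0.24 in TK6 and 0.10 in U2OS. UHRF1 (adjusted p = 0.0213) was below 0 in all 5, at -1.48 in BJ, -0.67 in TK6, -0.28 in G361, -0.26 in U2OS and -0.22 in HepG2.

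PRIM1 (adjusted p = 0.0446) was at -0.98 in BJ and 0.31 in TK6, and GINS1 (adjusted p = 0.0478) at -1.20 in BJ and between -0.10 and 0.01 elsewhere. In each of the 5 genes BJ had the lowest difference. With TK6, U2OS and BJ alone, so without the lines whose p53 targets do not follow the treatment labels, DTL (adjusted p = 0.00359) and CDC6 (adjusted p = 0.0369) were called, 2 of 47 against 1.26% of genes. Without replicate 1, 2 or 3 of every group 2, 1 and 0 members were called, against 1.98%, 0.505% and 0.568% of all genes. With a block for line and replicate number 12 members were called, against 4.09% of all genes, and 1 at 3 h, against 2.75%, though in BJ at 6 h the numbers were not shown to pair the arrays. None of the 5 genes was called in the fit of BJ alone, and this F test takes its error from all lines, while the median SD of the members was 0.16 to 0.46 in the BJ groups and 0.08 to 0.30 in those of the other lines. At 3 h 0 of 47 differed between the lines, against 1.34% of all genes, and 4 had an unadjusted p under 0.05.

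PCNA, the clamp, had a positive difference at both times in TK6, U2OS and BJ, without overlap between the arrays in TK6 and U2OS and with overlap in BJ. Its differences at 3 h and 6 h were 0.35 and 0.47 in TK6 (both called), 0.37 and 0.27 in U2OS and 0.41 and 0.54 in BJ. They were -0.12 and 0.17 in the arrays labelled G361 and -0.08 and 0.22 in those labelled HepG2. Its partner genes of the clamp loader, RFC1 to RFC5, were called in no line at either time in the fits of single lines, and RFC4 was called lower in BJ at 6 h in the fit of all 75 arrays (adjusted p = 0.0445).

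**Figure D5:**
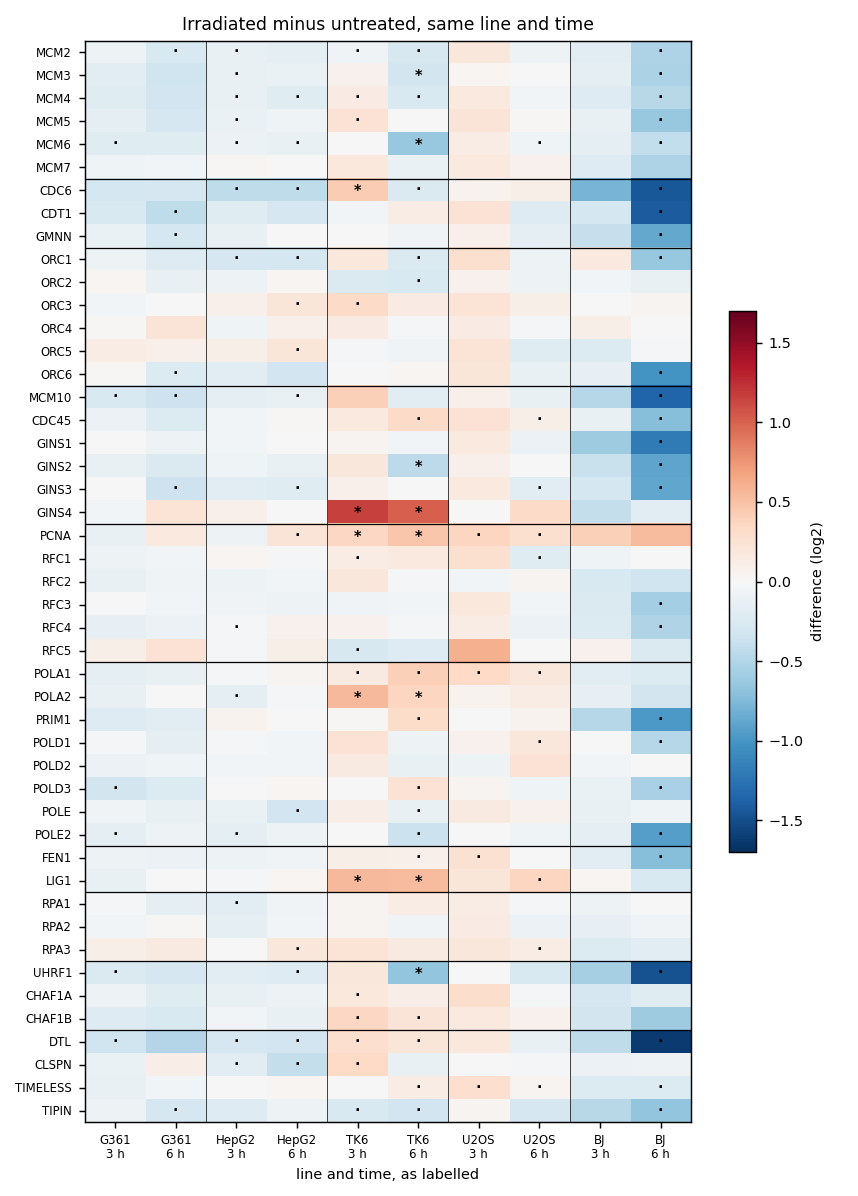
Irradiated minus untreated arrays of the same line and time (log2, colour scale from -1.7 to 1.7) for the 47 genes (rows, grouped by complex) in 5 lines at 3 h and 6 h (columns, as labelled). A star marks a called difference and a dot groups of 3 arrays that do not overlap. The blue column of BJ at 6 h has 26 dots on the lower side and no star, and the 13 stars are all in TK6.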

How the data were processed

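RNA of 75 samples (5 lines, 5 groups of 3) was measured on Affymetrix arrays of 54675 probe sets. The deposited values are log2 signals normalised by the authors with RMA, per the submitters' processing notes, with no version given. They were used as they stand. Gene symbols came from the platform annotation: 41097 probe sets had 1 symbol, 1801 several and 11777 none, and each gene was read from its brightest probe set (highest mean of the 75 arrays). RMA values of different probe sets were not compared.

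Each line was fitted with limma 3.58.1 (R 4.3.3): 5 group means over 15 arrays, 10 residual degrees of freedom, empirical Bayes with a variance trend. Genes above the line's 40th percentile of mean level were tested (14227 to 14654 genes, level limits of 3.47 to 3.52 log2), with Benjamini-Hochberg adjustment over all of them. Calls needed an adjusted p under 0.05, and only called genes are said to have risen or fallen. Counts at an unadjusted p under 0.05 have no share of all genes beside them and do not tell the members from all genes. Differences between lines used F tests and pairwise contrasts in 1 fit of all 75 arrays over 16027 genes. Groups do not overlap where all 3 arrays of one lie above all 3 of the other. The fit was tested on simulated data: for BJ at 6 h over 14467 genes, 40.3% of changes of 0.5 log2, 76.1% of changes of 1 and 98.5% of changes of 2 were called. No 2 arrays held identical values. The number of arrays limits the precision.

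Members called were named, and where more than 8 were called the 8 with the smallest adjusted p got full values. Where none was called, up to 3 with the largest difference among those without overlap were named as such, and of other lists up to 4 called genes. Further members, including the ones with overlapping arrays, are named to account for all 47 and were chosen after their values were seen. The rule for the members uses gene names alone, but it, the lists and the alternatives were written with earlier results of these data known. The alternatives were a replicate block, quantile normalisation, no level filter, the mean of all probe sets, no variance trend, other sets of arrays in the fit, untreated 0 h controls and arrays left out.

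Replicate numbers are from the labels. Same-numbered arrays were taken as paired where each of the 3 correlations of their deviations was over 0.1. In TK6 the lowest was 0.178 at 3 h, 0.259 at 6 h and 0.194 for untreated 6 h against 0 h, and the blocked values stand beside those results.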

Additional observations from a re-analysis of the deposited data

Results flagged for a closer look

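The effect of irradiation at 6 h differed between the 5 lines for 5 replication genes by the F test of the difference itself (limma). The adjusted p-values were 0.00102 for DTL, 0.0198 for CDC6, 0.0213 for UHRF1, 0.0446 for PRIM1 and 0.0478 for GINS1. In all 5 the difference in BJ was the lowest, from -1.63 log2 for DTL to -0.98 for PRIM1, while in the other 4 lines PRIM1 ran from -0.19 to 0.31. BJ was also the line with the lowest level of these 5 genes at 0 h, and its CDC6 arrays after irradiation lay near the level limit of 3.47 log2. In the fit of BJ alone none of the 5 was called (adjusted p = 0.0843 for DTL, 0.14 for UHRF1 and 0.229 for CDC6), and the F test takes its error from all lines, of which BJ had the widest spread in irradiated cells at 3 h and in untreated cells at 6 h. Without replicate 1, 2 or 3 of every group 2, 1 and 0 members were called. The treatment labels of G361 and HepG2 are in doubt from the p53 targets, and without these lines DTL and CDC6 were called. The cause of the difference was not tested.

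In TK6 the effect on UHRF1 differed between the times (6 h minus 3 h, -0.86 log2, SE 0.17, adjusted p = 0.0329). At 3 h the irradiated arrays lay at 9.46, 9.66 and 9.60 and the untreated ones at 9.47, 9.17 and 9.52, with overlap. At 6 h all irradiated arrays were below all untreated ones.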

How the results depend on the processing

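Of 274 recomputed counts and medians outside the leave-out settings, 243 stayed within the limit for an unchanged value and 31 moved. Of the 80 medians among them 4 changed sign, all with the 0 h controls given below, and of 91 medians with arrays left out 2 did, both U2OS at 3 h (-0.03 and -0.02). Of 182 values for named genes 126 kept their side of the threshold, 47 were no longer called and 9 became called. Leaving out arrays, 102 of 204 were no longer called. The cause was not tested where none is named. Counts below that have no share of all genes beside them, here or above, do not tell these members from all genes.

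In 1 fit of all 75 arrays the members called were 2 in TK6 at 3 h, 1 at 6 h, 0 for the difference between the times, 1 in untreated TK6 at 6 h and 16 in BJ at 6 h. In the fit of the 6 compared arrays they were 1 in TK6 at 3 h and 11 in BJ at 6 h. Without the variance trend they were 3 and 5 in TK6 at 3 h and 6 h, 0 for the difference between the times and 3 for the difference between lines at 6 h. With the mean of all probe sets they were 5 in TK6 at 6 h and 3 between lines at 6 h, and with quantile normalisation 8 between lines at 6 h. With TK6, U2OS and BJ alone 2 differed between lines at 6 h.

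With the replicate block the members called were 9 in TK6 at 3 h, 13 at 6 h, 4 for the difference between the times, 3 in untreated TK6 at 3 h, 10 in untreated TK6 at 6 h, 7 in untreated HepG2 at 6 h, 1 between lines at 3 h and 12 between lines at 6 h. In untreated TK6 at 3 h and HepG2 at 6 h the numbers were not shown to pair the arrays (lowest correlations 0.0632 and 0.0887). No other count of members called moved by over 1.5 times with the block.

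With the untreated 0 h arrays as controls, chosen after seeing the data, 8 members were called in TK6 at 3 h, 11 in BJ at 6 h and 1 in HepG2 at 6 h. The medians were then -0.71 log2 in BJ at 6 h, 0.04 and 0.13 in HepG2 at 3 h and 6 h, 0.02 in TK6 at 6 h and 0.08 in U2OS at 6 h.

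Leaving out arrays, the median ran from -0.62 to -0.28 in BJ at 6 h, from -0.10 to -0.02 in HepG2 at 6 h and from -0.06 to -0.00 in TK6 at 6 h. The members called were 0 to 5 in TK6 at 3 h, 0 to 6 at 6 h, 0 to 2 for the difference between the times, 0 to 2 and 0 to 3 in untreated TK6 at 3 h and 6 h, and 0 to 3 in BJ at 6 h. They were 0 to 5 in HepG2 at 3 h and at 6 h, 0 to 1 for its difference between the times, 0 to 3 in untreated HepG2 at 6 h, and 0 to 1 and 0 to 2 between lines at 3 h and 6 h. The count of members lower in BJ than in each other line at 0 h was 39 to 42 over all alternatives.

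Levels near the limit of 3.47 to 3.52 log2 (CLSPN, CDC6, MCM10 and ORC1 in BJ) limit how large a drop can be measured.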
